A study of Homo sapiens with 3 samples.

Results

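The 36 genes described here belong to the interferon response and to the sensing of RNA in the cytosol. They were picked by gene name among 39320 gene rows on the main references (alternative, random and unplaced sequences left out), and each of the 36 had 1 such row in every table. RNA was sequenced in 3 libraries of genotype WT that are labelled HepG2, a human liver cancer cell line. The libraries are replicates 1 to 3 of 1 condition and polyA RNA was sequenced, so no treated or infected group stands beside them. No label says whether they came from separate cultures, so the SD given here may be technical. A level is given in TPM, the RNA of a gene per length, scaled by the authors to the same total in each library.

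Cells detect foreign or misplaced RNA with helicases in the cytosol, which signal through MAVS on the mitochondrion to the factor IRF3 and thereby turn on interferon genes. Secreted type I interferon binds a receptor made of IFNAR1 and IFNAR2, and the kinases JAK1 and TYK2 then activate STAT2, which joins IRF9 to bind the interferon-stimulated response element (ISRE) of many genes. The products of these induced genes block the entry, translation, copying or release of viruses, and some of them, such as the sensors themselves and USP18, feed back on the pathway.

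The labelled cell type was compared with its markers. Of 10 hepatocyte markers, 0 reached 1 TPM in all 3 libraries, 7 were listed at 0 in every library, ALB and APOA1 among them, and the summed level of the list was 0.0571, 0.244 and 0.133 TPM in replicates 1, 2 and 3. The 8 housekeeping genes were all at 10 TPM or more, and of 5 markers of simple epithelia 2 reached 1 TPM in all libraries, the keratins KRT8 and KRT18 with 2609.6 ± 28.6 and 2017 ± 102 TPM (SD, n = 3), while CDH1 had 1.02 ± 0.0382 TPM (SD, n = 3) and KRT19 and EPCAM were below 1 TPM in every library. Of 8 leukocyte markers, 0 reached 1 TPM in all libraries, PTPRC, CD3E, LYZ and HLA-DRA were listed at 0 in all 3, and the summed level was 1.97, 1.69 and 1.64 TPM. The values below therefore hold for libraries labelled HepG2 whose hepatocyte markers were absent or close to 0. These are bulk libraries, in which few cells with much of an RNA and many cells with little of it cannot be told apart.

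Of the 36 genes, 31 (86.1%) had at least 1 TPM in all 3 libraries, a level that 33.8% of all gene rows reached. At least 10 TPM was reached by 23 of the 36 in all libraries, against 20.7% of all rows. None of the 36 was listed at 0 in all 3 libraries, as 40.7% of all rows were. The median of the 36 was 17.8, 16.9 and 16.8 TPM in replicates 1, 2 and 3, beside 0.0485, 0.0566 and 0.0371 TPM over all rows. Most rows of the table are genes with little or no RNA in these libraries, so these shares describe the genes as expressed and say nothing of induction.

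**Figure D1:**
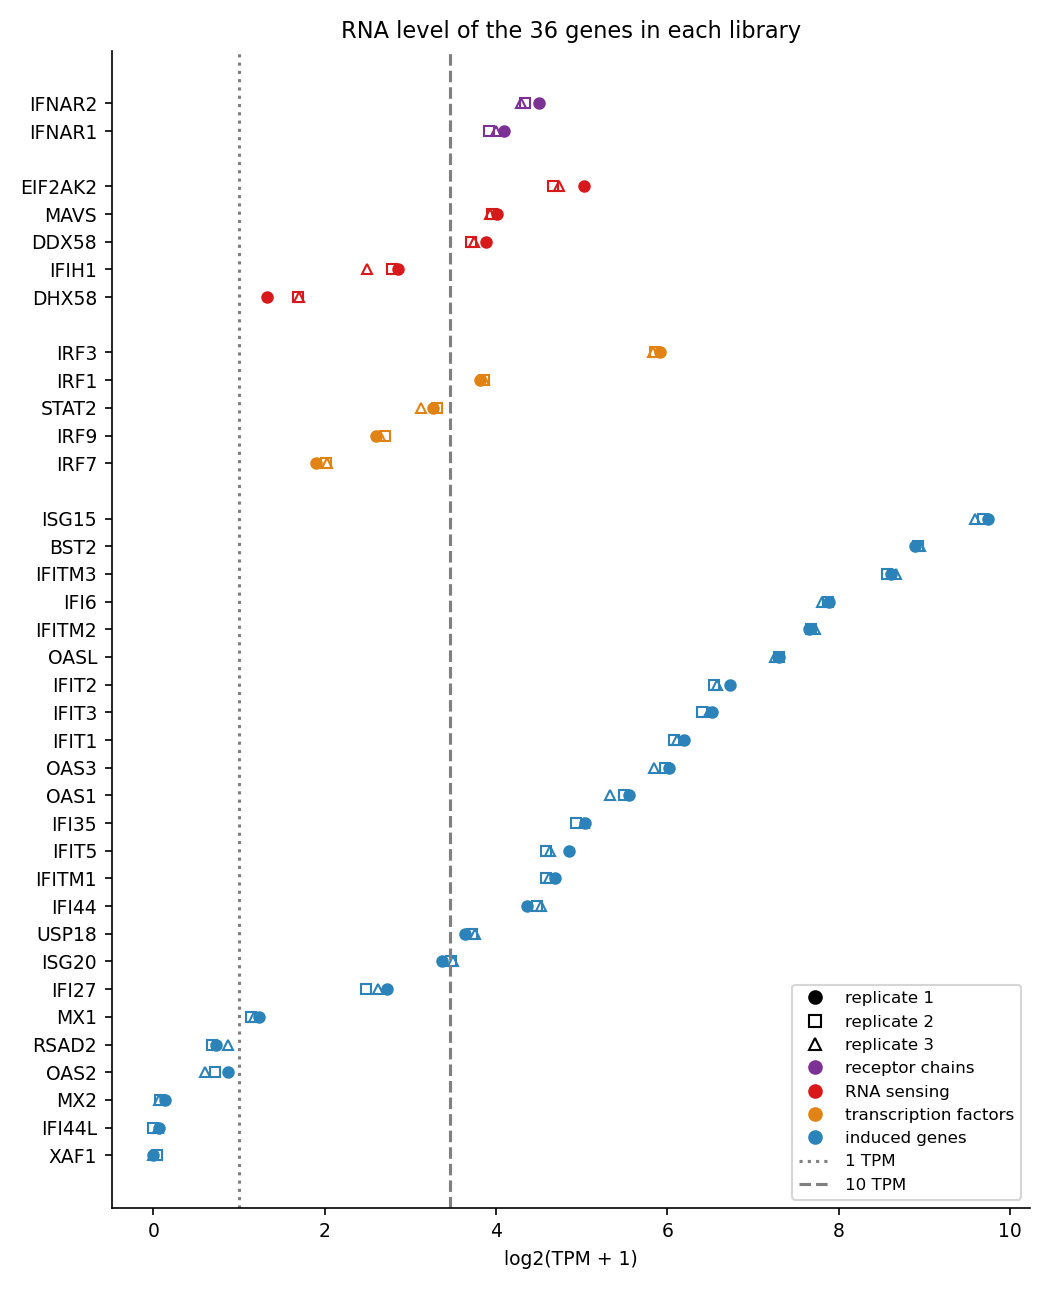
Level of each of the 36 genes, as log2(TPM + 1) on the horizontal axis, with 1 symbol per library and 1 color per role; the dotted and dashed lines mark 1 and 10 TPM. The induced genes run from XAF1, listed at 0 in replicates 1 and 3, to ISG15 at 770.4 to 856 TPM, while the receptor chains, sensing genes and transcription factors lie between 1.51 and 59.5 TPM.

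Both chains of the type I interferon receptor were expressed. IFNAR2, the chain that carries most of the high-affinity binding, had 21.6, 19.3 and 18.6 TPM in replicates 1, 2 and 3. IFNAR1, the other chain, had 16.1, 14.1 and 15.0 TPM. The libraries of the 2 genes did not overlap, and IFNAR1 was lower than IFNAR2 in each of them. The log2 ratio of IFNAR1 to IFNAR2 was -0.38 ± 0.071 (SD, n = 3) on the log2(TPM + 1) scale. An exact permutation test that flips the signs of the 3 library values (two-sided) gave p = 0.25, and 0.25 after Benjamini-Hochberg adjustment over the 4 pairs of genes tested. This is the smallest p that 3 libraries allow, so no pair could pass a threshold of 0.05.

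The sensing genes all had at least 1 TPM in every library, as did 33.8% of all rows. The means of the 5 sensing genes ran from 2.00 to 27.1 TPM. EIF2AK2 encodes PKR, a kinase that binds long base-paired RNA and stops translation, and it was the highest of the 5 at 31.5, 24.4 and 25.5 TPM. Its replicate 1 lay above the other two. MAVS, the adaptor on the mitochondrion, followed with 15.1, 14.5 and 14.3 TPM. DDX58, whose product RIG-I recognizes RNA ends with a triphosphate, had 13.7, 12.0 and 12.4 TPM. The libraries of MAVS and DDX58 did not overlap, although the means were close, 14.6 against 12.7 TPM.

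IFIH1 encodes MDA5, the helicase for long base-paired RNA, and had 6.21, 5.89 and 4.64 TPM. It was lower than DDX58 in 3 of 3 libraries, with a log2 ratio of DDX58 to IFIH1 of 1.07 ± 0.17 (SD, n = 3; two-sided exact sign-flip permutation p = 0.25, 0.25 after adjustment). DHX58, a related helicase that lacks the signaling domains and tunes the other two, was the lowest of the 5 at 1.51, 2.23 and 2.25 TPM. Its replicate 1 was below the other two, the reverse of EIF2AK2, and the 3 values had a coefficient of variation of 21.2%.

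Among the transcription factors, IRF3 stood above the rest. IRF3, which is present before infection and is activated by phosphorylation, had 59.5, 57.1 and 56.2 TPM. IRF1, a factor induced by interferon gamma and other signals, had 13.4 ± 0.323 TPM (SD, n = 3). STAT2 had 8.61, 8.93 and 7.73 TPM, and IRF9, its DNA-binding partner, had 5.08, 5.52 and 5.24 TPM. IRF7, which is itself made in response to interferon and amplifies it, was the lowest at 2.72, 3.03 and 3.08 TPM. The log2 ratio of IRF3 to IRF7 was 3.89 ± 0.11 (SD, n = 3), the largest of the 4 pairs tested, with the same direction in 3 of 3 libraries (two-sided exact sign-flip permutation p = 0.25, 0.25 after adjustment). The row of IRF3 shares 1042 bp, 16.5% of its span, with BCL2L12 on the other strand, which had 46.1 TPM in the mean. The strand setting is not given in the sources used here, so reads of the shared stretch cannot be assigned to either gene with certainty.

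The 24 induced genes covered the whole range of levels. At least 1 TPM in all libraries was reached by 19 of them, at least 10 TPM by 16 and at least 100 TPM by 6. Of all rows, 33.8%, 20.7% and 3.62% reached these levels. Another 5 were below 1 TPM in every library, as were 63.9% of all rows. Their median was 29.9, 26.3 and 27.7 TPM in replicates 1, 2 and 3, above the 13.7, 12.0 and 12.4 TPM of the 5 sensing genes. On the log2(TPM + 1) scale, the sensing median minus the induced median was -1.07 ± 0.015 (SD, n = 3). The difference had the same direction in 3 of 3 libraries. No p is given for this summary over chosen genes. The medians hide how far the induced genes spread. By their means, 12 lay above every sensing gene, 6 below every sensing gene and 6 between. In every library, 11 of the 12 and all 6 of the lower genes were outside the span of the sensing genes, IFI35 being the gene that overlapped EIF2AK2.

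A few genes made up most of the induced RNA. ISG15, a ubiquitin-like protein that is joined to other proteins, had the highest level at 856, 819.7 and 770.4 TPM. BST2, or tetherin, which holds budding virions on the cell surface, had 475, 485 and 494 TPM. IFITM3, which hinders the fusion of viruses with endosomal membranes, had 389, 379 and 405 TPM. IFI6, a small membrane protein, had 236, 234 and 222 TPM, and IFITM2, a close relative of IFITM3, had 199.7, 204 and 211 TPM. ISG15, BST2, IFITM3, IFI6 and IFITM2 together took 76.3%, 77.1% and 76.9% of the summed TPM of the 24 genes. Their libraries did not overlap one another, so the order of these 5 genes was the same in every library.

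The next genes were OASL and the IFIT family. OASL, a relative of the oligoadenylate synthetases that makes no oligoadenylate and binds RIG-I, had 157, 157 and 152 TPM. IFIT2, IFIT3 and IFIT1 had means of 97.5 ± 6.71, 87.9 ± 3.85 and 69.1 ± 2.83 TPM (SD, n = 3). IFI35, the partner of NMI, had 31.8, 29.6 and 31.6 TPM. USP18, a protease that removes ISG15 and also dampens receptor signaling, had 12.0 ± 0.513 TPM, and ISG20, an exonuclease, had 9.92 ± 0.530 TPM (SD, n = 3). IFI27, a protein of the mitochondrial and nuclear membranes, was lower, with 5.60, 4.56 and 5.14 TPM.

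At the other end, several widely used interferon markers had levels near or below 1 TPM. MX1, a dynamin-like GTPase that traps viral nucleoproteins, had 1.34, 1.20 and 1.26 TPM. RSAD2, or viperin, which makes a nucleotide that ends RNA chains, had 0.655, 0.608 and 0.824 TPM. OAS2, an oligoadenylate synthetase, had 0.823, 0.647 and 0.520 TPM. MX2, a nuclear-envelope relative of MX1, had 0.0946, 0.0564 and 0.0502 TPM. IFI44L was at 0.0482 and 0.0389 TPM in replicates 1 and 3 and listed at 0 in replicate 2. XAF1, an antagonist of the apoptosis inhibitor XIAP, was at 0.0253 TPM in replicate 2 and listed at 0 in the others. The tables hold no read counts, so the smallest level that could have been seen is unknown, and a 0 in 1 library beside a value above 0 in another does not show that the RNA was absent. In each library between 2161 and 2311 rows had a value above 0 and below 0.1 TPM.

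Several of the genes are neighbors in the genome, and neighbors did not always have like levels. On chromosome 10, the IFIT genes lie on the plus strand within 118952 bp (89302046 to 89420997 in GRCh38) in the order IFIT2, IFIT3, IFIT1 and IFIT5. By TPM, their levels fell in the same order. IFIT5, at 27.9, 23.0 and 23.8 TPM, was lower than IFIT2 by 3.77-, 4.03- and 3.99-fold in replicates 1, 2 and 3. By coverage, the mean number of reads over each base, the order was not kept. There IFIT3 had 180, 162 and 154 and IFIT1 had 279, 252 and 231 in replicates 1, 2 and 3. The whole row of IFIT5 lies within that of LOC107984251 on the other strand, which had 3.33 TPM in the mean. On chromosome 11, IFITM2, IFITM1 and IFITM3 span 12808 bp (308107 to 320914), and IFITM1, the middle gene, had 24.8, 23.0 and 23.5 TPM, lower than IFITM3 by 15.7-, 16.5- and 17.2-fold.

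On chromosome 12, the 3 oligoadenylate synthetase genes lie in tandem within 104947 bp (112906777 to 113011723). These enzymes bind base-paired RNA and make short oligoadenylates. OAS1 had 45.9, 43.9 and 39.3 TPM and OAS3 had 63.8, 61.6 and 56.4 TPM. OAS2, whose row begins 5214 bp beyond the end of OAS3, was lower than OAS3 by 77.5-, 95.2- and 109-fold in replicates 1, 2 and 3. On chromosome 1, IFI44 and IFI44L are 2797 bp apart and both on the plus strand. IFI44 had 19.5, 21.2 and 21.9 TPM, and its neighbor was close to 0 in every library. On chromosome 21, MX2 and MX1 are 10935 bp apart, and both were low. The log2 ratio of MX1 to MX2 was 1.09 ± 0.026 (SD, n = 3) on the log2(TPM + 1) scale, on which values this close to 0 are compressed, and it was 3.04 with a pseudocount of 0.1, 2.17 by coverage and 0.64 by FPKM (two-sided exact sign-flip permutation p = 0.25, 0.25 after adjustment).

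**Figure D2:**
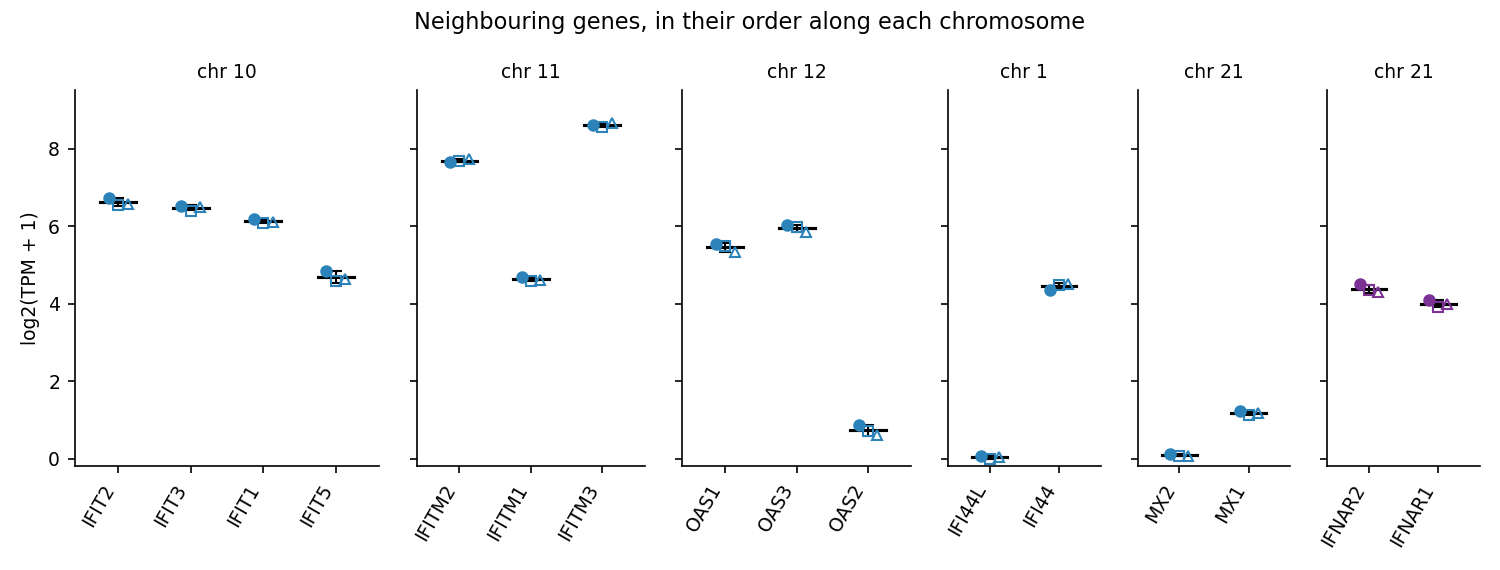
Levels of neighboring genes as log2(TPM + 1) on the vertical axis, in their order along the chromosome, with 1 symbol per library, a horizontal bar for the mean and whiskers for the SD (n = 3). IFITM1, OAS2 and IFI44L lie far below their neighbors in all 3 libraries, while the IFIT genes fall in order from IFIT2 to IFIT5.

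Reads of close relatives can be shared. The annotated main transcripts of each family in GENCODE v44 were compared in pieces of 100 bases. Between IFITM1 and IFITM3, 42 pieces were identical, 7.38% of those of IFITM1 and 8.20% of those of IFITM3, and no piece was shared within the IFIT, OAS, MX and IFI44 families or between IFITM2 and either relative. In pieces of 31 bases, 23.4% of IFITM3 was also in IFITM1 and 17.4% in IFITM2, and MX1 and MX2 shared 38 pieces. Part of the level of 1 IFITM gene may thus come from reads of another, and the effect of this on the values was not tested. IRF7 and IFI27 also have a row on an alternative reference, and these rows were at 0 TPM in all libraries.

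The promoters of the genes were searched for the ISRE. The table of RefSeq promoters (GRCh38.p14) holds an entry for 26 of the 36 genes, each 250 bases before and 50 bases after an annotated start. IFNAR2, DHX58, IRF3, IRF7, IFIT2, IFITM2, OAS2, OASL, MX2 and USP18 have no entry. The letters TTTCNNTTTC, the core of the ISRE, were searched on both strands, where the other strand reads GAAANNGAAA. At least 1 promoter held a match in 17 of the 26 genes (65.4%), compared with 4.38% of all 27305 genes of the table. Among the induced genes it was 15 of 18, among the sensing genes 2 of 4 (IFIH1 and EIF2AK2), and among the transcription factors 0 of 3. A match is a run of letters and is no evidence that a factor was bound there.

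Stretches around a match that ends before the start are shown for the 3 highest and the 3 lowest of the induced genes that have one, because they set genes of very different level beside each other. All are written 5′ to 3′ on the strand of the gene, and capitals mark each match.
ISG15 (chr1:1013360-1013429, plus strand): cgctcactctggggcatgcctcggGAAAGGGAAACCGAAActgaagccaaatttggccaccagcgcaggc
BST2 (chr19:17405715-17405784, minus strand): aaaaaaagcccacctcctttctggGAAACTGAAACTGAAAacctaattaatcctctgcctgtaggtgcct
IFITM3 (chr11:320861-320925, minus strand): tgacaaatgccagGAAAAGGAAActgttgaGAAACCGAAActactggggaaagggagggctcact
MX1 (chr21:41431824-41431893, plus strand): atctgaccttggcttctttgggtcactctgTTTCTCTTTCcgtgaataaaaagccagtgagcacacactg
RSAD2 (chr2:6877602-6877671, plus strand): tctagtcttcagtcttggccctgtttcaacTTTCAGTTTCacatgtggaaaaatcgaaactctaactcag
IFI44L (chr1:78620345-78620414, plus strand): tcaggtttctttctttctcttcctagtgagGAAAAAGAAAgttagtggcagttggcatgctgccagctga

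In ISG15 and BST2, 2 overlapping matches form a run of 3 GAAA units. In IFITM3, 2 matches stand apart. MX1, RSAD2 and IFI44L each show 1 match in the stretch printed. Where a gene has several entries, one with a match before its start was used first, then the one nearest the 5′ end of the deposited row. MX1 has 3 entries, 2 of them with a match, and RSAD2 has 2, 1 of them with a match. The start used for MX1 lies 11721 bp, and that for RSAD2 12044 bp, from the 5′ end of the deposited row. Those of ISG15 and BST2 are at the 5′ end itself.

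A match went with high and with low levels alike. The 17 genes with one had means from 0.0290 TPM (IFI44L) to 815 TPM (ISG15), with a median of 24.9 TPM, and the median of the 9 genes without one was 13.4 TPM. Within the induced genes the order was the other way, with a median of 24.9 TPM for the 15 with a match, while the middle one of the 3 without was IFI35. Of the 17, RSAD2 and IFI44L were below 1 TPM. The 3 induced genes without a match in their entries were OAS1 at 43.0 TPM, IFI35 at 29.6 TPM or more and XAF1, which was listed at 0 in replicates 1 and 3.

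**Figure D3:**
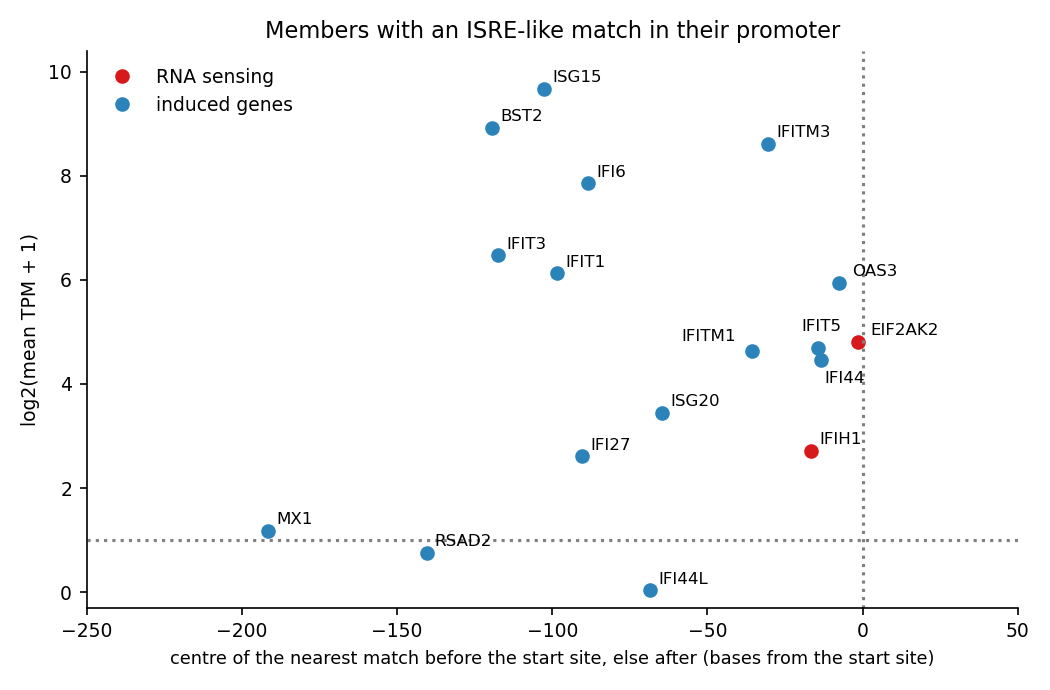
Each point is 1 of the 17 genes with an ISRE-like match; the horizontal axis gives the distance in bases from the annotated start to the centre of the nearest match, preferring matches before the start, and the vertical axis gives log2(mean TPM + 1), with 1 color per role and dotted lines at the start and at 1 TPM. Where a gene has several entries, one with a match before its start is used first. Genes with matches between 60 and 150 bases before the start range from IFI44L near 0 to ISG15 at 815 TPM.

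The other genes of the pathway were taken from a list of 68. Of the 21 interferon genes on it, 0 reached 1 TPM in any library, and 14 were listed at 0 in all 3. Of all rows, 63.9% were below 1 TPM in every library and 40.7% were listed at 0 in all 3. The highest was IFNL1, a type III interferon, with 0.455, 0.214 and 0.663 TPM. IFNB1, the type I interferon that infected cells make first, was listed at 0 in replicate 1 and had 0.227 and 0.0703 TPM in replicates 2 and 3. The summed TPM of the 21 genes was 0.722, 0.990 and 0.959.

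Of the 17 other sensors and signaling genes, 13 had at least 1 TPM in all libraries, against 33.8% of all rows. ADAR, which edits base-paired RNA and so hides it from MDA5, was the highest at 136, 122 and 125 TPM. TRIM25, which acts on RIG-I, had 60.1 ± 2.42 TPM, and ZC3HAV1, which binds viral RNA rich in CpG, had 48.0 ± 3.92 TPM (SD, n = 3). The kinases TBK1 and IKBKE, which phosphorylate IRF3, had 26.5 ± 0.861 and 10.6 ± 0.831 TPM, the adaptor TRAF3 had 14.9 ± 0.842 TPM, and RNF135, which ubiquitinates RIG-I, had 13.7 ± 0.544 TPM (SD, n = 3). The DNA sensor CGAS had 13.6 ± 0.616 TPM, while STING1, its adaptor, had 3.16 ± 0.226 TPM (SD, n = 3). The endosomal sensor TLR3 had 1.64 ± 0.198 TPM (SD, n = 3), whereas TLR7, TLR8 and AIM2 were listed at 0 in all libraries.

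Among 9 further receptors, kinases and regulators, 8 reached 1 TPM in each of the libraries, against 33.8% of all rows. JAK1 had 78.7, 71.1 and 70.5 TPM and TYK2 had 21.6, 21.4 and 21.7 TPM. IFNGR1 and IFNGR2, the chains of the interferon gamma receptor, had 12.0 ± 0.941 and 22.6 ± 1.60 TPM (SD, n = 3). Of the receptor for type III interferon, the shared chain IL10RB had 22.6 ± 1.04 TPM (SD, n = 3) and the specific chain IFNLR1 had 1.16, 0.999 and 0.872 TPM. The feedback inhibitor SOCS3 had 15.0, 14.6 and 12.2 TPM and its relative SOCS1 had 2.62 ± 0.343 TPM (SD, n = 3).

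The genes that join ISG15 to other proteins were uneven. UBA7, the enzyme that activates ISG15, had 0.668, 0.373 and 0.671 TPM, and UBE2L6, the enzyme that carries it onward, was listed at 0 in all 3 libraries. HERC5, the ligase of the last step, had 27.3, 22.8 and 23.7 TPM. Beside ISG15 at 770.4 TPM or more and its protease USP18 at 11.5, 12.2 and 12.4 TPM, the first steps of the chain were thus below 1 TPM in every library. Of the 21 induced genes outside the 36, 14 had 1 TPM or more in all libraries, against 33.8% of all rows. They ran from LY6E, a membrane protein with 127 ± 1.42 TPM (SD, n = 3), to 7 that were below 1 TPM in every library.

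**Figure D4:**
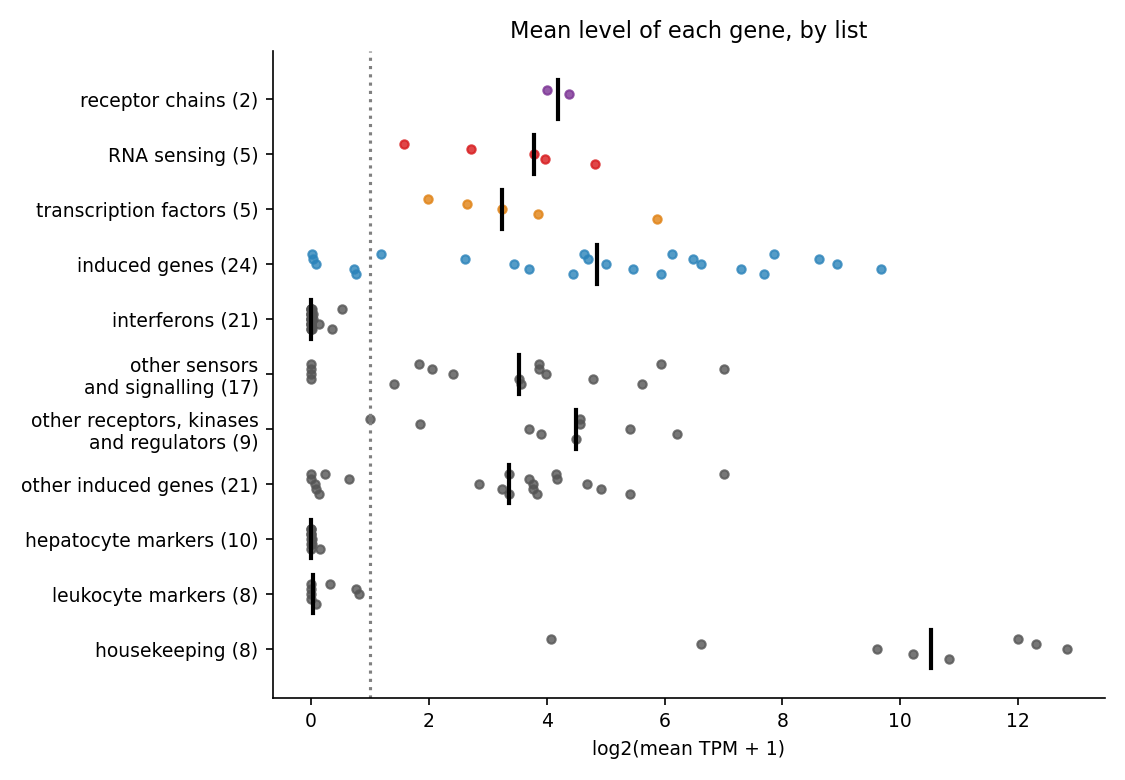
Mean level of each gene as log2(mean TPM + 1) on the horizontal axis, with 1 row per list, its number of genes in parentheses and a black bar for its median; the dotted line marks 1 TPM. The 21 interferon genes and the 10 hepatocyte markers all lie below 1 TPM, and the 24 induced genes spread from near 0 to 815 TPM.

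The libraries gave like values for those of the 36 genes with a mean of 10 TPM or more. Below that mean, the coefficient of variation ran from 4.22% for IRF9 to 173% for XAF1. Among the 23 whose mean was 10 TPM or more, the number that ranged over more than 1 unit of log2(TPM + 1) between libraries was 0, against 0.273% of the 8419 rows with such a mean, and their median coefficient of variation was 4.27%, beside 4.88% over those rows. Replicate 1 was the highest library for 17 of the 23, which compares with 62.5% of the 8419 rows. In the order of mean TPM, 23 of the 35 pairs of neighboring genes had libraries that did not overlap. The 12 pairs that overlapped included IFI35 and EIF2AK2, IFNAR1 and MAVS, IRF1 and DDX58, and RSAD2 and OAS2. No 2 libraries were copies of each other, since at most 7 of the 19099 rows above 0 in both had the same TPM.

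The coverage in the tables, the mean number of reads over each base, ordered some genes differently. The 3 highest genes were ISG15, BST2 and IFITM3 by either measure. IFNAR1 was 19th by TPM and 26th by coverage, IFI44 was 17th and 22nd, ISG20 24th and 29th, and IFIT3 8th and 11th. For IFNAR1 the coverage was 32.5, 27.7 and 25.8 in replicates 1, 2 and 3, against 90.5, 74.6 and 65.9 for IFNAR2, a wider gap than by TPM. With coverage divided by FPKM and set to 1 for the gene where this is highest, IFI44 was at 0.284 and ISG20 at 0.202 in replicate 2, while DDX58, IFIH1, IFIT2 and BST2 were at 1.00. The reason for these differences was not tested.

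**Figure D5:**
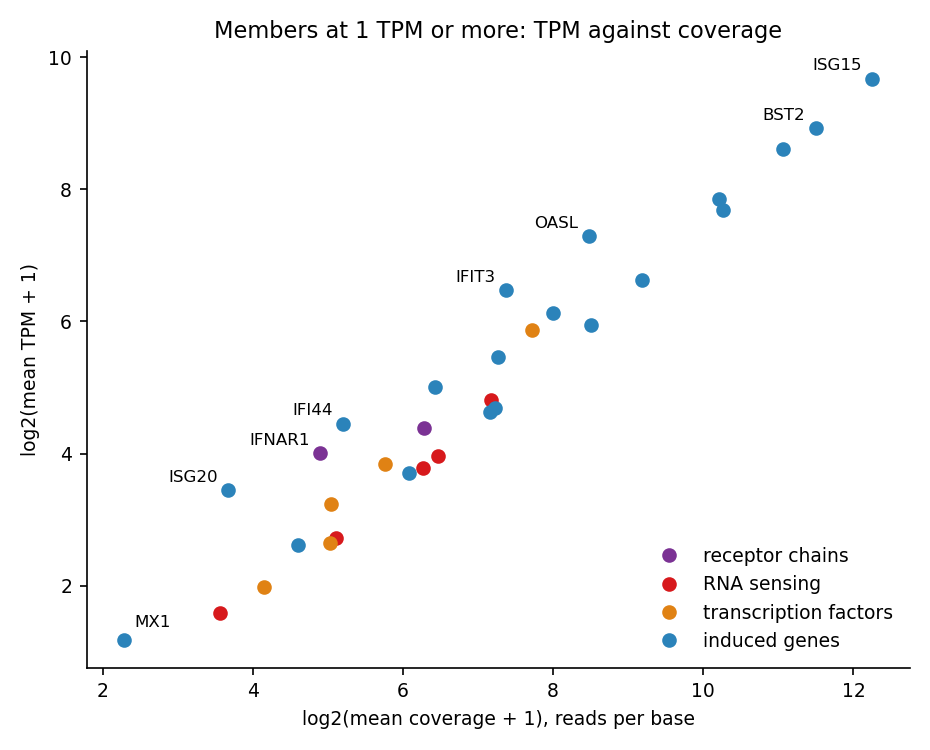
The 31 genes whose mean is 1 TPM or more, with log2(mean coverage + 1) on the horizontal and log2(mean TPM + 1) on the vertical axis, colored by role. ISG20, IFNAR1, IFI44, IFIT3 and OASL lie above the band that most genes form, which means a higher TPM at a given coverage.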

How the data were processed

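RNA-seq tables of 3 libraries labelled as wild-type HepG2 were used. Per the labels and the paper's methods, 150 bp paired-end reads were filtered with FastQC 0.11.8 and Trim Galore 0.6.2 and mapped to GRCh38 with STAR 2.6.1a. The submitters' processing notes also name StringTie, without a version. The annotation and the strand setting are not given in the sources used here. The deposited TPM is corrected for length and sums to an equal total per library, the deposited FPKM is scaled for length and library size, and the deposited coverage signal is the mean number of reads over each base, unscaled. Sequencing depth is unknown, and coverage divided by FPKM, which increases with it, reached 13.3, 12.8 and 11.5 in replicates 1, 2 and 3. The mitochondrial row TRNC took 16.9%, 17.2% and 17.1% of the TPM.

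Rows were joined by name, strand and coordinates (43389 rows), and the 39320 on the main references were used. DDX58 is the symbol in the tables. The genes, their division into 2 receptor chains, 5 sensing genes, 5 transcription factors and 24 induced genes, the 4 pairs of genes, and the lists of 68 other pathway genes and of markers were chosen with earlier results of these data known. All 36 genes are named, and of the other pathway genes the highest by mean TPM and the kinases, adaptors and receptors. The interferon and ISG15 conjugation genes and the other induced genes named, and the grouping of neighbors on a chromosome, were chosen after their values were seen. A pseudocount of 1 was used for log2 values. For 4 pairs of genes, the log2 ratio within each library was tested with an exact permutation test over its signs (two-sided). Some genes of the pathway lists are not reported here by name. Promoter sequences are from RefSeq (GRCh38.p14) and transcripts from GENCODE v44. Alternatives were other minimum levels and pseudocounts, FPKM or coverage in place of TPM, other scalings, other sensing groups, all rows of a symbol and leaving out each replicate. Python 3.11.15, numpy 2.4.6, pandas 2.3.3, scipy 1.17.1 and matplotlib 3.10.9 were used.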

Additional observations from a re-analysis of the deposited data

How the results depend on the processing

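Of 78 alternatives, 35 were of counts, which have no direction, and 0 of the rest turned a direction. Among the rest, summing all rows of a symbol added only rows at 0 TPM. Scaling without mitochondrially encoded genes multiplied all genes of a library alike. Neither of these could turn a direction. For the 4 pairs, neither could another pseudocount or FPKM, which keep which gene is higher within a library. Leaving out a replicate could not either, since all 3 libraries had the same direction in each ratio and in the difference of medians. For the pairs, only coverage could have turned a direction. Counts that moved by over 1.5 times and summaries that moved by over 1 SD are given first, then the ratios of pairs, none of which could pass a threshold. No pairing of samples across conditions was possible because a single condition was sequenced. With a minimum of 10 TPM in place of 1 TPM, 3 of the 5 sensing genes were counted in all libraries, IFIH1 and DHX58 being the others. Of all rows, 20.7% reached 10 TPM in all libraries. Without replicate 2, 1 gene (XAF1) was listed at 0 in all libraries, against 0 genes with all 3 libraries, because its single value above 0 is in that library. With a minimum of 10 TPM, 23 of the 36 genes in place of 31 were counted. The difference between the sensing and the induced median, -1.07 on the log2 scale, was -1.12 with a pseudocount of 0.1, -1.01 by FPKM, -0.92 by coverage, -1.60 without EIF2AK2, -0.82 with OAS1, OAS2 and OAS3 among the sensing genes and -1.30 by group means. It ranged from -1.08 to -1.06 with a replicate left out. The ratio of MX1 to MX2, 1.09 on this scale, was 3.04 with a pseudocount of 0.1, 2.17 by coverage and 0.64 by FPKM, and that of IFNAR1 to IFNAR2, -0.38, was -1.39 by coverage. A smaller pseudocount compresses low values less. TPM was 2.12, 2.09 and 2.09 times FPKM in replicates 1, 2 and 3 (median over rows). The pseudocount of 1 thus weighs more on FPKM, whose ratios between genes are otherwise those of TPM. The cause of the other shifts was not tested. Leaving out a replicate gave ratios from 0.97 to 1.14 for DDX58 to IFIH1, from 3.83 to 3.94 for IRF3 to IRF7, from -0.42 to -0.35 for IFNAR1 to IFNAR2 and from 1.08 to 1.10 for MX1 to MX2. Scaling without mitochondrially encoded genes multiplied every TPM by 1.25 in each library. Unknown depth limits every value close to 0.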

Other observations

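Among the induced genes outside the 36, chemokines were expressed. CCL5, which attracts T cells, had 29.7, 28.9 and 29.1 TPM in replicates 1, 2 and 3, and CXCL10, a ligand of CXCR3, had 6.66, 6.09 and 5.84 TPM. PLSCR1, a membrane protein that also enters the nucleus, had 41.8 ± 1.31 TPM (SD, n = 3). The partners PARP9 and DTX3L had 13.2 ± 1.66 and 17.1 ± 1.46 TPM (SD, n = 3), and the restriction factors TRIM5 and SAMHD1 had 16.8 ± 0.446 and 12.6 ± 1.04 TPM (SD, n = 3).

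Other genes of the same list were near 0. TRIM22 had 0.181 ± 0.0641 TPM (SD, n = 3), although TRIM5, a relative of the same family, was expressed. The guanylate-binding proteins GBP1 and GBP2 were listed at 0 in replicate 1 and had 0.198 TPM or less in the other libraries. CMPK2, whose row shares 903 bp with that of RSAD2 on the other strand, was listed at 0 in replicate 3 and had 0.0910 and 0.0669 TPM in replicates 1 and 2, so both of these neighbors were below 1 TPM. EPSTI1 was listed at 0 in replicates 1 and 3.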
